A study of Homo sapiens with 8 samples.

Results

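Transcripts of 45 genes that carry out DNA replication or control entry into S phase were compared between H460 cells sensitive to TRAIL and H460 cells that had become resistant to it. The genes were chosen by name, for their function, and each was read from its brightest probe set, by the mean of the 8 arrays. All 45 were measured, among 19775 genes in all, and every one of them lay above the level of the median probe set, 5.01, on each of the 8 arrays. H460 is an established line from a human large-cell lung carcinoma, and TRAIL is a secreted or membrane-bound cytokine that starts apoptosis through death receptors. Per the labels, the sensitive group (H460S, 4 arrays) holds control cells, and the resistant group (H460R, 4 arrays) holds cells of the same line with resistance acquired over 6 months of daily treatment at doses below toxicity. All cells grew in the same serum-containing RPMI medium. The text on TRAIL treatment stands on the labels of all 8 arrays, so the groups were taken from the titles and source labels. The labels do not say whether the resistant cells are a clone or a pool, how long before the harvest TRAIL was last given, or whether replicates were grown separately. P-values therefore reflect the spread of these 8 arrays alone, and that spread may be technical.

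Replication begins in G1, when the origin recognition complex, CDC6 and CDT1 load the ring-shaped MCM helicase onto DNA, a step called licensing. At the start of S phase the cyclin E and CDC7-DBF4 kinases switch the helicase on by adding CDC45 and the GINS complex, and primase, polymerases, the PCNA clamp and its loader then copy the DNA from nucleotides made by ribonucleotide reductase, thymidylate synthase and thymidine kinase. Many of these genes are transcribed under E2F factors, which the retinoblastoma proteins hold back until G1 cyclins and their kinases release them.

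The promoters of several members are shown because these genes are known for shared control through E2F sites. RefSeq windows of assembly GRCh38.p14, from 250 bases before to 50 bases after a start site, were found for 39 of the 45 genes. They were searched on both strands for 4 forms of the E2F site, namely TTCCCGC, the variant TTGGCGC, the variant TTCGCGC and the variant TTGCCGC, which can overlap each other on opposite strands. At least 1 form was found for 30 of the 39 genes (76.9%), against 4169 of 27305 genes with any such window (15.3%). Of the 53 matches in members, 37 began no more than 60 bases before the start site. In the windows below, written 5′ to 3′ along the gene, capitals mark the matches. The first 5 genes rose in resistant cells, ORC1 did not pass the test and CDT1 fell.
CDC25A, chr3:48188368-48188667, minus strand: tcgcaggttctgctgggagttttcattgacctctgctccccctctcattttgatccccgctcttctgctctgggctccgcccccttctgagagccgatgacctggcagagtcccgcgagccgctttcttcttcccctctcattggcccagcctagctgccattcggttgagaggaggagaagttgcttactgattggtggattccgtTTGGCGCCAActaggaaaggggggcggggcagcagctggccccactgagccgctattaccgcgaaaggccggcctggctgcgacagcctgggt
CDC6, chr17:40287629-40287928, plus strand: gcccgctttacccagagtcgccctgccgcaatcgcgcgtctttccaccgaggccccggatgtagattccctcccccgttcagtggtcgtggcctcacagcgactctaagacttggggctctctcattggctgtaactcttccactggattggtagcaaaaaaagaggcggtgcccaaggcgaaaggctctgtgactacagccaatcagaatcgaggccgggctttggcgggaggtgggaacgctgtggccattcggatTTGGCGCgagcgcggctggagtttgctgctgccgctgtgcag
MCM3, chr6:52284693-52284992, minus strand: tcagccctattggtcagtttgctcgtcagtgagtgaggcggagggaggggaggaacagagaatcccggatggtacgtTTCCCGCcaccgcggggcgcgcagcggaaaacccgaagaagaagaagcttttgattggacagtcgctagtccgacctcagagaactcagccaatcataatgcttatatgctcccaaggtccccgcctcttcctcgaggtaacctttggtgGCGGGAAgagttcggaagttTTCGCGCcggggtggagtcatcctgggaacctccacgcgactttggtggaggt
MCM6, chr2:135876394-135876693, minus strand: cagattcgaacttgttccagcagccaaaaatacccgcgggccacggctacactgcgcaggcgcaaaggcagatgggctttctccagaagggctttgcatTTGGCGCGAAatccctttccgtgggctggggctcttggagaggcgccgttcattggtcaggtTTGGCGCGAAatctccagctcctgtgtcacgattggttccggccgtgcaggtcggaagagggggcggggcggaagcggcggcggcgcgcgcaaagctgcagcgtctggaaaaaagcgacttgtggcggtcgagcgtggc
GINS1, chr20:25407423-25407722, plus strand: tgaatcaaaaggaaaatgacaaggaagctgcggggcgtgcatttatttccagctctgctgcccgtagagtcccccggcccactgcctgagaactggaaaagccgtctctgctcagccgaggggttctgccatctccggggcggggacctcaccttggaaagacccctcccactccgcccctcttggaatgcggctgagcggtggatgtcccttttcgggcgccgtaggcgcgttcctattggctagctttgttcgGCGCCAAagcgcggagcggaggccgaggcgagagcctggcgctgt
ORC1, chr1:52404374-52404673, minus strand: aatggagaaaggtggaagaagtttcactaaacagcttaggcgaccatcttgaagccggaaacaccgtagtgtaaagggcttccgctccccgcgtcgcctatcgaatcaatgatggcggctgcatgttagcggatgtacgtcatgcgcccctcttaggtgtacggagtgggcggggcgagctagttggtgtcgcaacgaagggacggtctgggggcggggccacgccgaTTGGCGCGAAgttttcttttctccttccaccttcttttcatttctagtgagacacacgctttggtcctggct
CDT1, chr16:88803539-88803838, plus strand: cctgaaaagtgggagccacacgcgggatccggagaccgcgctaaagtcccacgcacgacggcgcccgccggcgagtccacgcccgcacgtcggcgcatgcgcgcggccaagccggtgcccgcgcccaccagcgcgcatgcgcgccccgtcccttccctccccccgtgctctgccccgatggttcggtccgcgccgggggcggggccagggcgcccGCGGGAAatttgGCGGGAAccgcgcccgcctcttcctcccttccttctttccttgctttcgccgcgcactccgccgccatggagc

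A match was found for 20 of the 26 genes with a window that rose, for 8 of the 11 that did not pass and for both that fell. ORC1 carries a TTGGCGC match and an overlapping TTCGCGC match on the opposite strand, which begin 22 and 19 bases before its start site, and CDT1 carries 2 TTCCCGC matches on the opposite strand. Thus the letters were found in genes of each outcome. The element CCAAT, the site of the factor NF-Y, was found for 21 of the 39 genes (53.8%) and for 39.7% of all genes. The letters TTTGAA, known from genes of G2 and mitosis, were found for 2 of the 39 (5.13%) and for 18.2% of all genes. A match describes the letters of a window and does not show that a factor binds there.

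Most members were higher in resistant cells. Each change is the mean log2(signal + 1) of the 4 resistant arrays less that of the 4 sensitive arrays, given with its standard error from limma, which fits a linear model to all genes. The words rose and fell are kept for genes whose p-value, adjusted by Benjamini-Hochberg over all 19775 genes, was below 0.05. Of the 45 members, 31 rose, 2 fell and 12 did not pass. Among all genes 30.3% passed, 14.7% rising and 15.6% falling, so rises were more frequent among the members than among all genes. All genes include many dim ones, whereas all 45 members were brighter than the median gene. With probe sets of a mean log2 below 6 left out, 3178 of 10046 genes rose, and 35 of the 45 members, so the contrast was smaller. The other shares of all genes given here include dim genes. The median change of the members was 0.55, and that of all genes was -0.03. A rise of at least 2-fold was seen in 13 members, where 3.12% of all genes rose as much; no member fell that far, as 4.64% of all genes did. For 32 members all 4 resistant arrays lay above all 4 sensitive arrays, an order seen in 16.5% of all genes, and for 1 member, RFC2, all 4 lay below, as in 17.4% of all genes. The members were chosen with earlier results of these data known, so these shares describe the list and are not independent support for its direction.

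**Figure D1:**
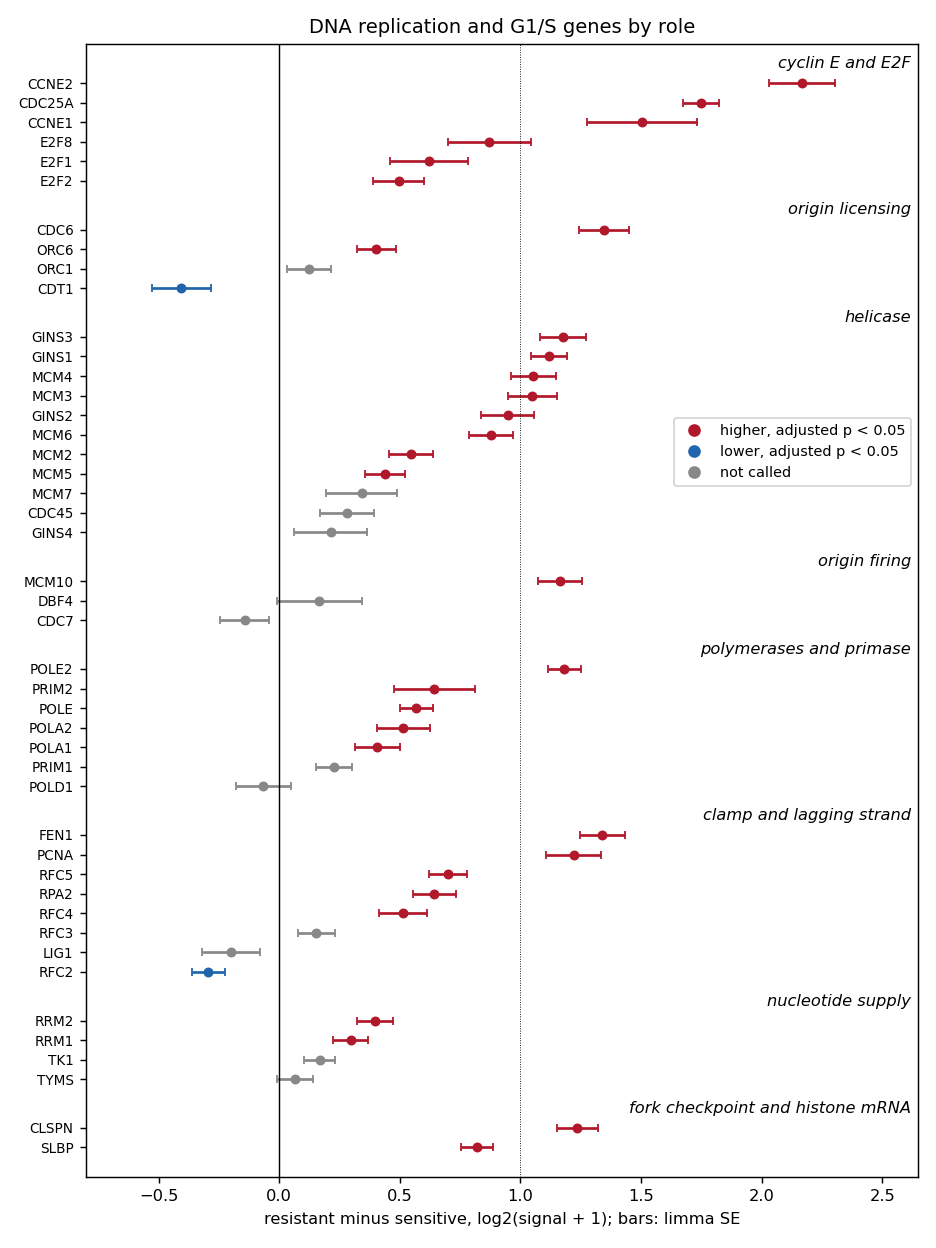
Change of each of the 45 genes between resistant and sensitive cells, in blocks by role, as the log2(signal + 1) difference on the horizontal axis with its standard error from limma (4 arrays per group). Red points rose, blue points fell and grey points did not pass; the dotted line marks a 2-fold rise, which 13 genes reached, led by CCNE2 at 2.17.

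By role, the 6 genes of cyclin E, its activator and the E2F factors had a median change of 1.19, and all 6 rose. The helicase, with MCM2 to MCM7, CDC45 and GINS1 to GINS4, followed with 8 of 11 risen and a median of 0.88. Among 8 genes of the clamp, its loader and the lagging strand, 5 rose and 1 fell, with a median of 0.58. Of 7 polymerase and primase genes 5 rose, with a median of 0.51. The 4 genes of licensing gave 2 rises and 1 fall with a median of 0.26, and the 4 genes of nucleotide supply 2 rises with a median of 0.23. Of the 3 genes of origin firing 1 rose, with a median of 0.17, which was 0.08 without sensitive array 1, 0.09 without resistant array 2, 0.25 without sensitive array 4 and 0.31 without resistant array 4. CLSPN and SLBP, placed apart from the other roles, both rose. Differences between these medians were not tested, since each role holds few genes. In RNA of a whole culture, a larger share of cells in S phase and more RNA of these genes per cell cannot be told apart.

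The cyclin E genes and the phosphatase that activates their kinase had the largest rises. CCNE2, which encodes cyclin E2, read 6.12, 6.51, 6.64 and 6.62 on sensitive arrays 1 to 4 and 8.67, 8.55, 8.80 and 8.53 on resistant arrays 1 to 4. The groups were far apart, and the change was 2.17 ± 0.14 (adjusted p = 4.85e-05). CCNE1, which encodes cyclin E1, read 7.16, 6.70, 6.64 and 6.02 in sensitive and 8.16, 7.98, 8.09 and 8.31 in resistant cells. It rose by 1.50 ± 0.23 (adjusted p = 0.00226), with a sensitive SD of 0.47, the widest of the 45 genes. When the values of its probe sets were averaged, CCNE1 gave 0.08 (adjusted p = 0.913); its other probe set was dim, at 3.84 and 2.50 in sensitive and resistant cells. CDC25A, the phosphatase that removes inhibitory phosphates from the cyclin E kinase, lay between 6.75 and 6.91 on the sensitive and between 8.48 and 8.64 on the resistant arrays. Its change was 1.75 ± 0.07 (adjusted p = 1.08e-05), the smallest adjusted p of the 45 genes. Whether CCNE2 rose more than CCNE1 was tested within arrays: CCNE2 minus CCNE1 was -0.16 ± 0.67 (SD) in sensitive and 0.50 ± 0.20 in resistant cells, which an exact two-sided permutation test did not separate (p = 0.114, adjusted p = 0.171 over 6 such pairs).

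The E2F genes rose less. E2F1, an activating factor, read 6.91, 6.68, 6.84 and 7.12 in sensitive and 7.62, 7.09, 7.66 and 7.66 in resistant cells. Resistant array 2 lay among the sensitive arrays, and the change of 0.62 ± 0.16 (adjusted p = 0.0243) did not pass without any of sensitive arrays 1, 2 and 3 or resistant arrays 1, 3 and 4. When each array was left out in turn, it ranged from 0.55 to 0.76 with adjusted p-values up to 0.0672. A second E2F1 probe set, at 6.76 in sensitive and 7.14 in resistant cells, was not called (0.38 ± 0.15, adjusted p = 0.135 over all probe sets). With the mean of its probe sets E2F1 passed (0.50, adjusted p = 0.0316). E2F2, a second activator, rose by 0.49 ± 0.11 (adjusted p = 0.0108), from 7.62 to 7.78 on the sensitive arrays to 7.95 to 8.36 on the resistant arrays. E2F8, an atypical E2F that represses replication genes later in S phase, rose by 0.87 ± 0.17 (adjusted p = 0.00749). The E2F8 minus E2F1 difference within arrays was not separated between groups (change of 0.25, exact permutation p = 0.429, adjusted p = 0.429).

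**Figure D2:**
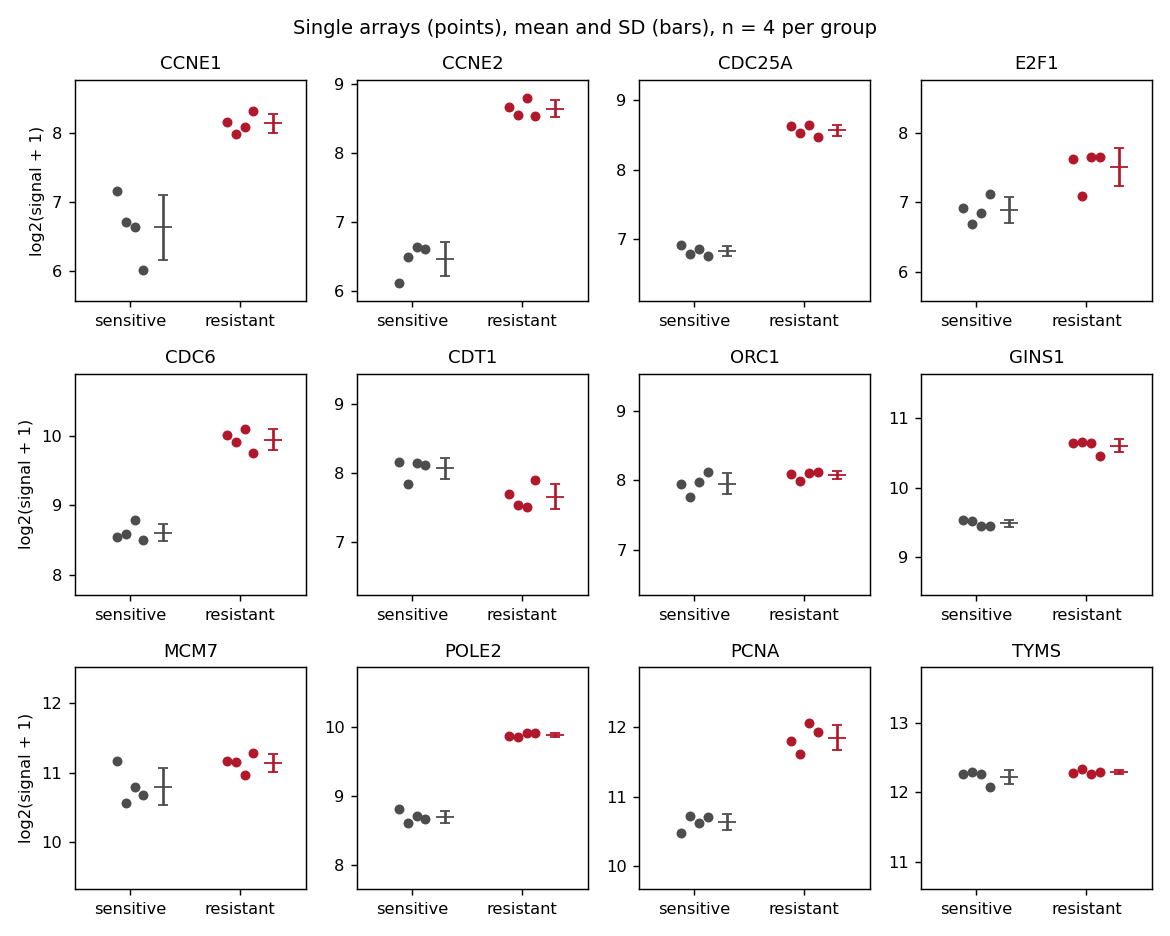
Level of 12 members on each array, as log2(signal + 1) on the vertical axis, with points for single arrays and bars for the mean and SD of 4 arrays. All panels span the same range of 3.2 log2 units; CCNE2, CDC25A, CDC6, GINS1, POLE2 and PCNA show groups far apart, CDT1 is lower in resistant cells with 1 overlapping array, and ORC1 and TYMS overlap.

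The licensing genes went different ways. CDC6, the loader ATPase, read 8.54, 8.59, 8.78 and 8.50 in sensitive and 10.02, 9.92, 10.11 and 9.76 in resistant cells, a rise of 1.35 ± 0.10 (adjusted p = 0.000121). CDT1, which brings the helicase to CDC6, read 8.16, 7.84, 8.14 and 8.12 in sensitive and 7.69, 7.54, 7.51 and 7.90 in resistant cells. Its fall, -0.41 ± 0.12 (adjusted p = 0.0413), was small, and resistant array 4 lay above sensitive array 2. It did not pass without any of sensitive arrays 1, 3 and 4 or resistant arrays 1, 2 and 3 (-0.49 to -0.36, adjusted p up to 0.106), nor after quantile normalization (-0.36, adjusted p = 0.0682), and likewise once arrays were centred on their medians (-0.33, with 0.0872). With the mean of both of its probe sets the change was -0.0016 (adjusted p = 0.996). A second CDT1 probe set, at 7.56 in sensitive and 7.97 in resistant cells, gave 0.40 ± 0.34 (adjusted p = 0.482, over all probe sets). Within arrays CDC6 minus CDT1 was 0.38, 0.75, 0.64 and 0.39 in sensitive and 2.33, 2.38, 2.60 and 1.86 in resistant cells. The difference of 1.75 had an exact permutation p of 0.0286, the smallest that 70 assignments of 4 against 4 arrays can give, and an adjusted p of 0.171 over the 6 pairs. A pair that alone reaches this smallest p cannot be adjusted below 0.05 over 6 pairs, so the adjusted value does not decide the question.

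The origin recognition genes among the members gave small differences. ORC6, a subunit of the complex, rose by 0.40 ± 0.08 (adjusted p = 0.00734), from 9.10 to 9.35 on the sensitive arrays to 9.54 to 9.66 on the resistant arrays. ORC1, its large ATPase subunit, read 7.95, 7.76, 7.98 and 8.12 in sensitive and 8.08, 7.99, 8.10 and 8.12 in resistant cells. These groups overlapped, and the change of 0.12 ± 0.09 did not pass (adjusted p = 0.378). ORC1 minus ORC6 differed between groups by -0.28 within arrays (exact permutation p = 0.114, adjusted p = 0.171).

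Of the 6 subunits of the MCM ring, 5 rose. MCM4 and MCM3 rose by 1.05 ± 0.09 and 1.05 ± 0.10 (adjusted p = 0.000204 and 0.000316). MCM3 read 9.27, 9.27, 9.58 and 9.56 in sensitive and 10.54, 10.52, 10.42 and 10.39 in resistant cells. The ring subunit MCM6 rose by 0.88 ± 0.09 (adjusted p = 0.000401), MCM2 by 0.55 ± 0.09 (adjusted p = 0.00364) and MCM5 by 0.44 ± 0.08 (adjusted p = 0.00625). MCM7 did not pass, at 11.17, 10.56, 10.79 and 10.68 in sensitive and 11.17, 11.15, 10.96 and 11.28 in resistant cells. Sensitive array 1 was as high as the resistant arrays, and the change was 0.34 ± 0.15 (adjusted p = 0.127). Without that array it passed (0.46, adjusted p = 0.0215), as it did with median centring (0.41), with the mean of its probe sets (0.39), once dim probe sets were dropped (adjusted p = 0.0405) and with an intensity trend (adjusted p = 0.0255). A second MCM7 probe set was called higher (0.44 ± 0.09, adjusted p = 0.0137 over all probe sets). The 4 brightest of the 5 MCM4 probe sets changed by 1.03 to 1.07, and the fifth was dim.

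The factors that turn the MCM ring into an active helicase included rises as large. GINS3 rose by 1.18 ± 0.09 (adjusted p = 0.000133) and GINS1 by 1.12 ± 0.07 (adjusted p = 6.46e-05). GINS1 lay between 9.44 and 9.53 on the sensitive and between 10.46 and 10.66 on the resistant arrays. GINS2 rose by 0.95 ± 0.11 (adjusted p = 0.000694). A GINS2 probe set without a suffix s, x or a in its name, close to the median level, gave 0.31 (adjusted p = 0.607). The mean of the 3 GINS2 probe sets gave 0.60 (adjusted p = 0.107). The fourth subunit gene, GINS4, read 7.18, 7.05, 7.32 and 7.08 in sensitive and 7.02, 7.34, 7.40 and 7.72 in resistant cells and did not pass (0.21 ± 0.15, adjusted p = 0.357). For CDC45, which joins MCM and GINS in the moving helicase, the change was 0.28 ± 0.11 (adjusted p = 0.105), short of the threshold. It passed with median centring (0.35, adjusted p = 0.0280), once dim probe sets were dropped (0.0312) and with an intensity trend (0.0347). MCM10, which helps to start the helicase, rose by 1.16 ± 0.09 (adjusted p = 0.000124), from 8.04 to 8.30 on the sensitive arrays to 9.31 to 9.47 on the resistant arrays.

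The kinase that fires origins was not called. CDC7, its catalytic subunit, read 8.64, 8.64, 8.79 and 8.91 in sensitive and 8.59, 8.71, 8.69 and 8.41 in resistant cells, a change of -0.14 ± 0.10 (adjusted p = 0.362). DBF4, its activating subunit, gave 0.17 ± 0.18 (adjusted p = 0.548), with resistant array 4 at 8.97 and the other resistant arrays at 9.49 to 9.63. CDC7 minus DBF4 differed by -0.31 within arrays (exact permutation p = 0.0857, adjusted p = 0.171).

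Both epsilon genes among the members rose, and POLD1, the 1 delta gene among them, was not called. POLE2, the second epsilon subunit, read 8.81, 8.60, 8.71 and 8.67 in sensitive and 9.86, 9.84, 9.90 and 9.91 in resistant cells. The resistant arrays were close together, and the rise was 1.18 ± 0.07 (adjusted p = 3.84e-05). POLE, the catalytic epsilon subunit, rose by 0.57 ± 0.07 (adjusted p = 0.000818). POLD1, the catalytic subunit of polymerase delta, read 9.33, 9.02, 8.95 and 9.16 in sensitive and 9.16, 8.86, 9.08 and 9.09 in resistant cells, a change of -0.07 ± 0.11 (adjusted p = 0.726). Its sign turned with median centring (0.0071) and without sensitive array 1 (0.0064), and the difference between the epsilon and delta genes was not tested. The other delta subunits, on the wider list and named after their values were seen, went different ways. POLD2 rose by 0.28 ± 0.09 (adjusted p = 0.0493), POLD4 fell by 0.42 ± 0.12 (adjusted p = 0.0403), and POLD3 was not called (0.11 ± 0.08, adjusted p = 0.345). Neither the POLD2 nor the POLD4 call held without sensitive arrays 2, 3 or 4 or resistant arrays 1, 2 or 3; over all arrays left out, POLD2 gave 0.25 to 0.33 (adjusted p up to 0.125) and POLD4 -0.52 to -0.38 (adjusted p up to 0.103). After quantile normalization neither passed (adjusted p = 0.0762 and 0.0523).

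Of the 4 genes of the polymerase alpha and primase complex, which lays down primers, 3 rose. POLA1, the catalytic alpha subunit, rose by 0.41 ± 0.09 (adjusted p = 0.0150) and POLA2, its partner, by 0.51 ± 0.11 (adjusted p = 0.0104). POLA2 did not pass with the mean of its 3 probe sets (0.55, adjusted p = 0.0807), and the brighter of its dim ones gave -0.29 (adjusted p = 0.492). PRIM2, the large primase subunit, rose by 0.64 ± 0.17 (adjusted p = 0.0247), from 6.18 to 6.77 on the sensitive arrays to 6.86 to 7.43 on the resistant arrays. It did not pass without any of sensitive arrays 1, 2 and 4 or resistant arrays 1 and 3 (0.53 to 0.75, adjusted p up to 0.0634), and other probe sets of PRIM2 are shared with a related sequence, PRIM2BP, so its value is uncertain. PRIM1, the catalytic primase subunit, missed the threshold (0.23 ± 0.07, adjusted p = 0.0576), although all resistant arrays, at 10.19 to 10.36, lay above all sensitive arrays, at 9.94 to 10.11. It passed with a pseudocount of 16 (0.22), median centring (0.30), dim probe sets left out, an intensity trend, array weights (0.21) or GAPDH as a covariate (0.24), with adjusted p-values of 0.0105 to 0.0491.

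**Figure D3:**
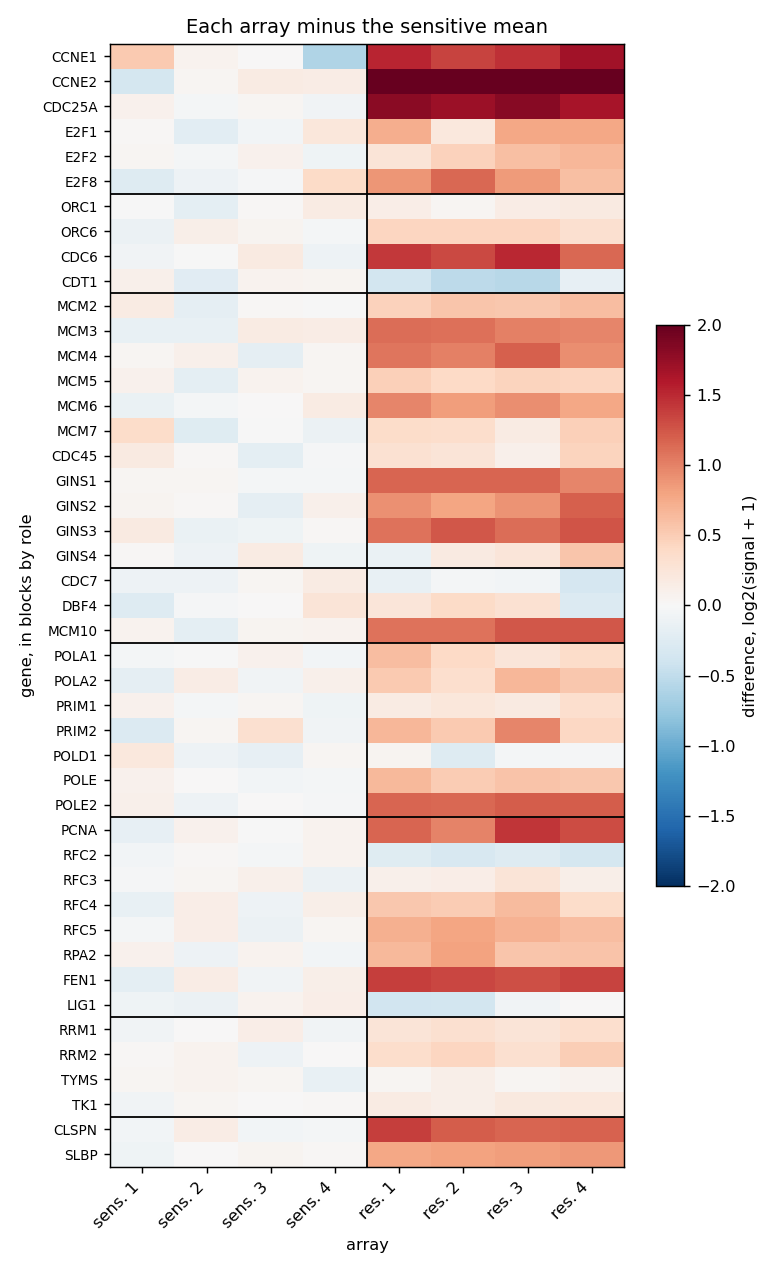
Difference of each array from the mean of the 4 sensitive arrays for all 45 genes, in log2(signal + 1), red for higher and blue for lower; genes are in blocks by role and arrays in columns. The CCNE1, CCNE2, GINS1, GINS2, GINS3 and MCM10 rows are red on all 4 resistant arrays, while the CDT1 and RFC2 rows are blue and the TYMS and ORC1 rows are near white; the colour scale ends at 2, which CCNE2 passes on all 4.

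The clamp and the enzymes that finish the lagging strand included some of the larger rises. PCNA, the sliding clamp, read 10.48, 10.72, 10.62 and 10.71 in sensitive and 11.80, 11.62, 12.06 and 11.93 in resistant cells, a rise of 1.22 ± 0.11 (adjusted p = 0.000266). FEN1, the nuclease that trims Okazaki fragments, read 9.18, 9.53, 9.30 and 9.49 in sensitive and 10.76, 10.72, 10.66 and 10.73 in resistant cells, a rise of 1.34 ± 0.09 (adjusted p = 8.2e-05). Groups did not overlap for either gene. LIG1, the ligase that seals the fragments after FEN1, read 8.35, 8.32, 8.50 and 8.56 in sensitive and 8.05, 8.07, 8.36 and 8.45 in resistant cells. Its change was -0.20 ± 0.12 (adjusted p = 0.271), which is not a call. RPA2, a subunit of the protein that coats single-stranded DNA, rose by 0.64 ± 0.09 (adjusted p = 0.00146).

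The clamp loader genes were mixed. RFC5 rose by 0.70 ± 0.08 (adjusted p = 0.000624) and RFC4 by 0.51 ± 0.10 (adjusted p = 0.00685). RFC3, at 0.15 ± 0.08 (adjusted p = 0.193), was not called. With the mean of its 3 probe sets it passed (0.41, adjusted p = 0.00606). RFC2 was the member with all resistant arrays below all sensitive ones, at 9.75, 9.83, 9.78 and 9.89 in sensitive and 9.57, 9.50, 9.56 and 9.45 in resistant cells. It fell by 0.29 ± 0.07 (adjusted p = 0.0142), but missed the threshold with median centring (-0.22, adjusted p = 0.124), with the mean of its probe sets (-0.27, adjusted p = 0.0562) and on a second probe set (-0.25 ± 0.12, adjusted p = 0.221 over all probe sets).

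Genes of nucleotide supply gave small differences. RRM2, the regulated subunit of ribonucleotide reductase, read 12.38, 12.42, 12.24 and 12.35 in sensitive and 12.69, 12.78, 12.67 and 12.84 in resistant cells, a rise of 0.40 ± 0.08 (adjusted p = 0.00613). RRM1, the catalytic subunit, rose by 0.30 ± 0.07 (adjusted p = 0.0207), but lost the call when sensitive array 4 (0.27) or resistant array 2 (0.29) was left out, with adjusted p-values up to 0.0577. Its second probe set gave 0.04 ± 0.10 (adjusted p = 0.834 over all probe sets), and the mean of both 0.17 (adjusted p = 0.155). RRM2 minus RRM1 differed by 0.10 (exact permutation p = 0.229, adjusted p = 0.274). TYMS, thymidylate synthase, read 12.27, 12.30, 12.27 and 12.08 in sensitive and 12.27, 12.34, 12.27 and 12.30 in resistant cells, a change of 0.07 ± 0.07 that did not pass (adjusted p = 0.577). A dimmer TYMS probe set was called lower (-0.63 ± 0.16, adjusted p = 0.0323 over all probe sets). TK1, thymidine kinase, was not called (0.17 ± 0.06, adjusted p = 0.0926), with resistant arrays at 9.76 to 9.85 above sensitive arrays at 9.57 to 9.69. The RRM2 and TYMS signals are bright, and how far they are from saturation was not examined.

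The remaining members both rose. CLSPN, which encodes claspin, a mediator of the replication checkpoint at the fork, read 5.86, 6.07, 5.85 and 5.87 in sensitive and 7.29, 7.13, 7.08 and 7.10 in resistant cells, a rise of 1.24 ± 0.09 (adjusted p = 7.51e-05). SLBP, which binds the stem-loop of histone messages made in S phase, rose by 0.82 ± 0.07 (adjusted p = 0.000133), from 10.00 to 10.13 on the sensitive arrays to 10.85 to 10.95 on the resistant arrays. Of all 31 risen members, 28 also passed with each array left out in turn; the others were E2F1, PRIM2 and RRM1.

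**Figure D4:**
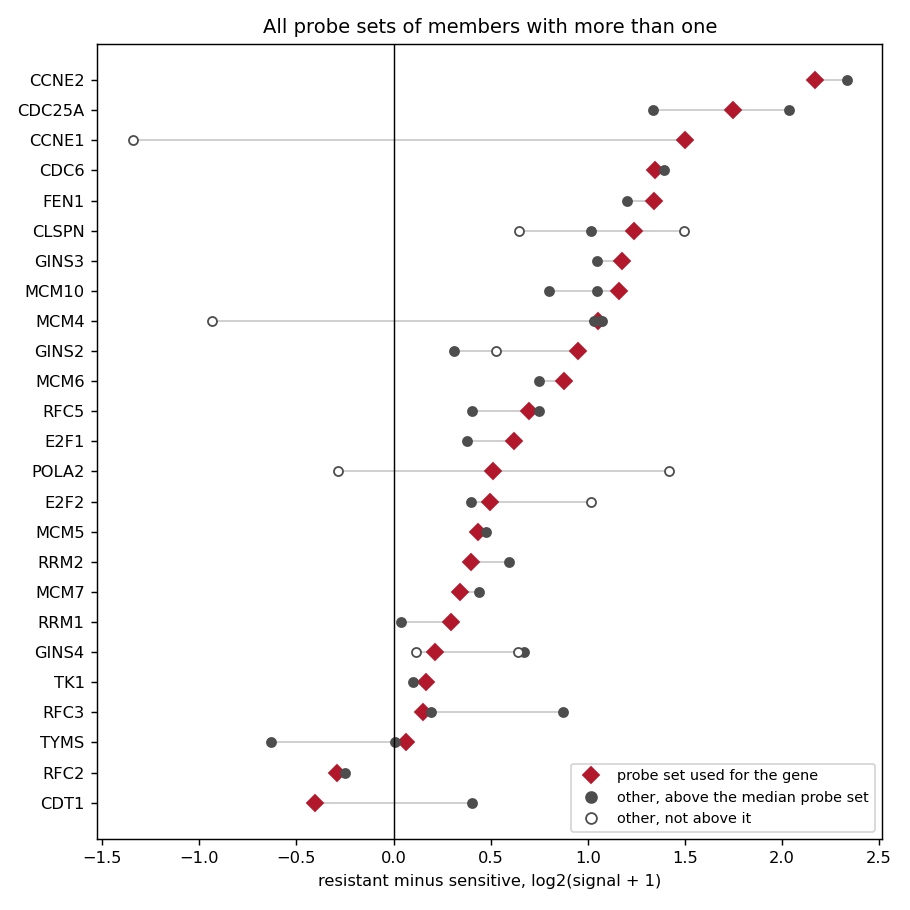
Change of every probe set of the 25 genes with more than 1, as the log2(signal + 1) difference between resistant and sensitive cells; red diamonds are the probe sets used for the gene, filled circles other probe sets above the median level and open circles dimmer ones. CDC6, GINS3, MCM5 and FEN1 show close values, whereas CDT1 and TYMS have probe sets on both sides of 0, as have CCNE1, MCM4 and POLA2 through dim ones.

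Second probe sets mostly ran the same way. Of 85 probe sets of the members, 40 were not used for the gene, and 30 of these lay above the median probe set. Fitted over all probe sets, where adjusted p-values are higher, the probe sets used for CDT1 (adjusted p = 0.0739), RFC2 (0.0508) and RRM1 (0.0612) no longer passed. Among the 30, 17 were called higher, 1 lower and 12 were not called over all probe sets. The share of all probe sets called in that fit was not counted, so these counts have no background beside them. The sign was that of the probe set used for 28 of the 30. The 2 with the opposite sign belonged to CDT1 and TYMS. CCNE2 gave 2.33 on its second probe set and 2.17 on its first, CDC6 1.39 and 1.35, FEN1 1.20 and 1.34, and GINS3 1.05 and 1.18.

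Other genes of replication and G1/S control, listed by function, gave a smaller share of rises. Of 61 measured, 27 rose, 6 fell and 28 did not pass, beside the 14.7% and 15.6% of all genes, and the median change was 0.27. With dim probe sets left out, 34 of 60 rose, beside 3178 of 10046 genes. Rises were most frequent among 8 genes of chromatin replication, where 6 rose, and among 12 of firing and the fork, where 7 rose. UHRF1, which recruits the maintenance DNA methyltransferase to new DNA, rose by 1.46 ± 0.10 (adjusted p = 7.04e-05). DSCC1, a subunit of an alternative clamp loader, rose by 1.41 ± 0.11 (adjusted p = 0.000105). It gave 0.44 (adjusted p = 0.533) on a probe set without a suffix s, x or a. ASF1B, a histone chaperone, rose by 1.02 ± 0.09 (adjusted p = 0.000253).

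GMNN encodes geminin, the protein that binds and blocks CDT1 after licensing. It read 9.09, 9.19, 9.23 and 9.23 in sensitive and 10.41, 10.49, 10.50 and 10.44 in resistant cells, a rise of 1.28 ± 0.07 (adjusted p = 2.34e-05). GMNN was thus higher in the group in which the mean of the CDT1 probe set used here was lower. The second CDT1 probe set gave 0.40 (adjusted p = 0.482 over all probe sets), and a link between GMNN and CDT1 was not tested. ORC4, another subunit of the origin recognition complex, fell by 0.63 ± 0.06 (adjusted p = 0.000312), while ORC6 of the same complex rose.

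Among genes that control cyclin E and E2F, FBXW7, the ubiquitin ligase subunit that marks cyclin E for breakdown, read 7.45, 7.67, 7.60 and 7.56 in sensitive and 6.58, 6.42, 6.36 and 5.95 in resistant cells. It fell by 1.24 ± 0.14 (adjusted p = 0.000597). CDKN1B, which encodes the inhibitor p27 of cyclin E kinase, read 9.56, 9.97, 9.88 and 9.83 in sensitive and 8.81, 8.75, 8.82 and 8.57 in resistant cells, a fall of 1.07 ± 0.11 (adjusted p = 0.000395). RBL2, a retinoblastoma-related protein that represses E2F targets in resting cells, fell by 0.74 ± 0.14 (adjusted p = 0.00633). These were the 3 genes that fell among the 18 of G1/S control on the wider list, where 7 rose and 8 were not called. Some other genes that hold back E2F targets rose. Those named here were picked after their values were known, for having risen, so the choice is one-sided. They were RBL1, a relative of RBL2 (0.58 ± 0.08, adjusted p = 0.00123), and the repressors E2F7 (0.31 ± 0.09, adjusted p = 0.0372) and E2F6 (0.27 ± 0.08, adjusted p = 0.0386). RBL1 passed with each array left out but not with the mean of its probe sets (0.42, adjusted p = 0.328). E2F7 passed only without resistant array 4 and E2F6 only without resistant array 3 when arrays were left out in turn (0.25 to 0.36 and 0.24 to 0.32, adjusted p up to 0.0985 and 0.102). With the mean of probe sets neither passed (E2F7 0.18, adjusted p = 0.253, and E2F6 0.27, adjusted p = 0.0569). E2F7 also missed the threshold with median centring (0.39, adjusted p = 0.0528).

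Values for further inhibitors and partners were mixed. CDKN1A, which encodes the inhibitor p21, rose by 0.30 ± 0.08 (adjusted p = 0.0281), but did not pass without any of sensitive arrays 2 and 3 or resistant arrays 1, 3 and 4 (0.26 to 0.34, adjusted p up to 0.0775). RB1, the retinoblastoma gene, was not called (0.28 ± 0.20, adjusted p = 0.375), with resistant array 4 at 8.15 and the other resistant arrays at 8.83 to 8.93. CDK2, the kinase partner of cyclin E, gave 0.28 ± 0.09 (adjusted p = 0.0525), and passed without resistant array 4 (0.34, adjusted p = 0.0232) and under 6 settings that kept all arrays, quantile normalization among them (0.28, adjusted p = 0.0458). CCNA2, the cyclin that takes over CDK2 in S phase, rose by 0.57 ± 0.07 (adjusted p = 0.000961).

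Several measures of the arrays stand beside these results. Correlations of an array with the rest of its group averaged 0.955 to 0.965, and with those of the other group 0.937 to 0.942. The 3′ minus 5′ difference of the ACTB control probe sets, which changes with RNA integrity and labelling, was 0.23 on every sensitive array and 0.10 to 0.13 on the resistant arrays (exact two-sided permutation p = 0.0286, the smallest possible), and its part in the results was not tested. For GAPDH the same difference did not separate the groups (exact permutation p = 0.686). With it as a covariate 32 members rose and 2 fell, beside 2858 and 3158 of all 19775 genes. Without sensitive array 1 and resistant array 4 together, an alternative chosen after seeing the data, 29 members rose and 2 fell. Of all 19775 genes, 2668 rose and 2868 fell in that fit. Of the epithelial markers, KRT8 and KRT18 were bright (11.41 and 13.18 in sensitive, 11.36 and 13.12 in resistant cells), while EPCAM (4.40 and 3.83) and CDH1 (2.43 and 2.29) lay below the median probe set in both groups. KRT19 fell from 12.52 to 11.28 (adjusted p = 0.000116). Of 11 markers of other cell types, 4 lay below the median probe set in both groups, namely PTPRC and CD3E of leukocytes and VWF and CDH5 of endothelium (2.08 to 4.17 in group means). Above it in both groups lay 5, which were CD14 of monocytes (6.47 in sensitive and 6.67 in resistant cells), PECAM1 of endothelium (6.14 and 5.73), HBB of red cells (5.69 and 5.16) and the fibroblast collagens COL1A1 (7.66 and 7.30) and COL3A1 (9.96 and 9.95). The fibroblast markers DCN (5.21 and 4.05) and LUM (5.75 and 2.48) lay above it in sensitive cells only, and LUM fell (adjusted p = 0.00337). The part of these markers in the results was not tested.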

How the data were processed

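RNA extracted with Trizol and labelled with biotin, per the labels' protocols, was hybridised to 8 Affymetrix arrays. The authors deposited 1 table of linear intensity values for 54675 probe sets. RMA is the tool named by the submitters' processing notes, and its version is not given in the sources used here. RMA gives log2 values, unlike this table, whose values are linear, reach below 1 and have a mean of 200.0 on every array after trimming 2% at each end, so the step that made them is not settled and a change in total RNA per cell cannot be seen. The design had foreseen log2(signal + 1) for linear values, and this was used with a pseudocount of 1, which understates changes of dim genes. Arrays have no read depth, and their number, 4 per group, limits the precision.

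Of the probe sets, 62 controls were left out of the fit, 41097 had 1 gene symbol, 1801 had several and 11777 had none here. For 41043 of them the symbol was brought up to date by Entrez identifier (RefSeq, GRCh38.p14). Each of the 19775 genes was read from its probe set with the highest mean. The group fit used limma 3.58.1 under R 4.3.3, with Benjamini-Hochberg adjustment over all genes; single values had exact two-sided permutation tests. Alternatives changed the values by another pseudocount, quantile normalization or median centring. Others left out dim probe sets or those with a suffix s, x or a, or took the mean of a gene's probe sets. The rest were a robust prior that follows intensity, weights for arrays, GAPDH as a covariate, a replicate block and leaving out arrays. The fit was tested on simulated data first. The members and lists were chosen with earlier results of these data known. Any member could be named, and of the wider list the 4 largest changes called in each direction and GMNN, CDK2, CCNA2, CDKN1A, CDKN1B and RB1; POLD2, POLD3, POLD4, RBL1, E2F6 and E2F7 were named after their values were seen.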

Additional observations from a re-analysis of the deposited data

Results flagged for a closer look

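In 126 groups of 4 arrays, 1 for each named gene and group, 11 held 1 array far from the other 3 relative to the whole range; chance flags about 1 in 20 groups. Sensitive array 2 was the far one in 4 of them. It was low for CDT1 (7.84, the others 8.12 to 8.16), MCM5 (8.95, the others 9.18 to 9.23) and MCM10 (8.04, the others 8.28 to 8.30), and high for CLSPN (6.07, the others 5.85 to 5.87). Resistant array 4 was low for GINS1 (10.46, the others 10.65 to 10.66), ORC6 (9.54, the others 9.65 to 9.66) and RB1 (8.15, the others 8.83 to 8.93), and high for POLD4 (8.64, the others 8.22 to 8.24). E2F1 was low on resistant array 2 (7.09, the others 7.62 to 7.66). On sensitive array 4 TYMS was low (12.08, the others 12.27 to 12.30) and RBL2 was high (9.08, the others 8.55 to 8.61). The gaps for ORC6 (0.11), GINS1 (0.19), TYMS (0.19) and CLSPN (0.20) were small, and the largest was that of RB1 (0.68).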

How the results depend on the processing

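The count of risen members stayed between 23 and 35 under every alternative run. The lowest, 23, came from leaving out probe sets with a suffix s, x or a, where 35 of the 45 members had a value. Of all genes, 1953 of 16788 rose in that setting, and the wider list gave 17 rises among 49. The highest, 35, came with dim probe sets left out (3178 of 10046 genes rose) and with the intensity trend (3355 of 19775). The 2 falls were less stable: 1 remained after quantile normalization, and 0 after median centring, with the replicate block, without suffixed probe sets or with probe sets averaged by gene; leaving out each array gave 1 to 2. No shared deviation of same-numbered arrays was seen (correlations of deviations between them were -0.025 to 0.012). This does not show whether they were grown or processed together. The replicate block gave 25 rises among the members, and 18 rises and 4 falls in the wider list. Of all 19775 genes, 2088 rose and 2268 fell with it. Among risen members the block ended the calls of E2F2 (adjusted p = 0.0527), E2F8 (0.0552), RFC4 (0.0550), POLA1 (0.0751), POLA2 (0.0631) and RRM1 (0.0898). Among the named risen genes of the wider list it ended those of CDKN1A (0.0829), POLD2 (0.0963), E2F6 (0.114) and E2F7 (0.108). Of the 31 risen members, 21 passed in every such fit that used at least 7 arrays and in which they had a value.

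Medians by role moved by more than the spread between arrays in these cases. With a pseudocount of 16, cyclin E and E2F gave 1.07 and CLSPN with SLBP 0.94. With median centring, the clamp and lagging strand gave 0.65, nucleotide supply 0.30 and CLSPN with SLBP 1.10. With the mean of all probe sets, cyclin E and E2F gave 0.75, the helicase 0.60, nucleotide supply 0.15 and CLSPN with SLBP 0.96. Without suffixed probe sets, licensing gave 0.76 over 2 genes, polymerases 0.32, the clamp and lagging strand 0.51, nucleotide supply 0.10 and CLSPN alone 1.24. All of these stayed above 0. Signs turned for POLA2 (-0.29, without suffixed probe sets), TYMS (-0.19, mean of all probe sets) and POLD1 (0.0071 after median centring, 0.0064 without sensitive array 1, with a range of -0.12 to 0.0064 when each array was left out). With 3 arrays against 4, permutation tests of the pairs cannot reach 0.05, so those gave values only. With TTTCCCG and TTTGGCG as E2F forms, 59.0% of members with a window held a match, and 7.30% of all genes.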
